A study of Homo sapiens with 15 samples.

Results

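The 39 genes described here encode the aminoacyl-tRNA synthetases of human cells and the scaffold proteins that hold some of them together. They were listed by gene name, with earlier results of these data known. The list holds 20 genes of cytosolic synthetases, 16 genes of mitochondrial synthetases and the 3 scaffold genes AIMP1, AIMP2 and EEF1E1, out of 57773 genes counted. All 39 had enough counts to be tested. The older symbols of the gene annotation are used (the current ones add a 1, as in WARS1).

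A synthetase joins an amino acid to its tRNA, the step that puts the genetic code into effect at the ribosome. The cytosol and the mitochondrion mostly use separate sets of these enzymes, and KARS and GARS encode forms for both compartments. A group of the cytosolic enzymes sits with the scaffold proteins in the multi-tRNA synthetase complex. Many cytosolic synthetase genes are known targets of ATF4, the transcription factor that is translated when eIF2 is phosphorylated, for example by the kinase GCN2 when uncharged tRNA builds up. Myeloma cells secrete large amounts of immunoglobulin and so depend on protein synthesis and on the proteasome, which bortezomib inhibits; elesclomol carries copper into mitochondria.

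The libraries came from MM.1S, an established human multiple myeloma line that carried GFP and luciferase, grown in the marrow of SCID-beige mice. These mice lack working lymphocytes and have impaired NK cells but keep other mouse marrow cells. Each of the 5 groups had 5 mice at random assignment, and 3 tumours per group were sequenced as total RNA of flushed femurs taken at paralysis, so every level is that of animals at the end of treatment and not of an early response. Mice received bortezomib at 0.25 mg/kg into the peritoneum once a week, elesclomol at 25 mg/kg under the skin on another day of the weekly schedule, both drugs from the start (the combination), both drugs with elesclomol begun 14 days after inclusion (the delayed combination), or weekly intravenous saline labelled PBS. The 3 libraries of a group came from separate tumours of 1 cell line, so the p-values measure the spread between these mice.

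Library totals were 5458022 to 8449749 counts with bortezomib, 6602596 to 7977375 with elesclomol, 6448673 to 9227140 in the combination, 11060930 to 13161087 in the delayed combination and 4500326 to 6287708 with PBS. The myeloma label was met by the markers fixed for it: 12 plasma cell genes summed to 13900 to 17142 CPM in the 15 libraries, with SDC1 at 941 to 1395 CPM and IRF4 at 664 to 986 CPM, while FGFR3 was at 0 to 0.251 CPM. CPM are counts scaled to a common library size with TMM factors. The 60 marker genes of erythroid, granulocyte, macrophage, endothelial, stromal and T or NK cells summed to 179 to 306 CPM in 14 libraries and to 739.7 CPM in elesclomol 1, and 14 to 27 of them were at 0. Erythroid and granulocyte markers made up most of the sum in elesclomol 1, at 343.4 and 144.4 CPM. These are counts on human genes, and how mouse reads were handled is not given, so the sum does not measure the share of mouse cells. In 3 libraries, bortezomib 1, combination 1 and delayed combination 2, the deviation of all genes from their mean over libraries correlated most with GC content (0.315 to 0.509, as a description across genes), and these are called the GC-rich libraries. The coefficient was -0.310 to 0.157 in the other 9 treated libraries and -0.348 to -0.293 in the 3 PBS libraries. Every comparison with PBS thus carries a difference in GC content, whose part in the results was not tested; values with offsets for it are given where they differ. In bulk RNA, fewer cells that express a gene and less of its RNA per cell cannot be told apart.

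The median level of the cytosolic synthetase genes was above that of the mitochondrial ones, with single genes of each set on either side. Levels were put on the scale of CPM per kilobase of exon to compare genes of different length. The length is that of all annotated exons of a gene joined, not of 1 transcript. Genes with much annotated exon, such as CARS (10037 bases) and IARS (7401 bases, against 4089 for NARS), can thus come out lower. On this scale the median level in PBS tumours was 22.5 over the 20 cytosolic synthetases (3.51 to 65.7), 10.5 over the 3 scaffolds (7.89 to 12.5) and 6.08 over the 16 mitochondrial enzymes (1.17 to 25.0). Of the 20 highest of the 39 genes, 16 were cytosolic synthetases, 3 were mitochondrial and 1 was a scaffold. The raw counts behind these levels ran from 14 for SARS2 to 4813 for EPRS in a single library.

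EPRS, the bifunctional enzyme that charges the tRNAs of glutamate and proline, stood highest per kilobase of exon, at 65.7 ± 0.73 CPM per kilobase in PBS tumours (SD, n = 3). NARS for asparagine at 36.2 ± 1.32 and IARS for isoleucine at 32.5 ± 1.41 CPM per kilobase came next (SD, n = 3 each). AARS, GARS and FARSB, for alanine, glycine and the beta subunit of the phenylalanine enzyme, lay between 31.2 and 32.3 CPM per kilobase, and IARS, AARS, GARS and FARSB overlapped from each gene to the next in the PBS libraries. CARS, the cysteine enzyme, was the lowest cytosolic gene at 3.51 ± 0.13 CPM per kilobase. Among mitochondrial enzymes IARS2 was the highest at 25.0 ± 0.90 CPM per kilobase, within the range of DARS above it and of QARS below it. SARS2 was the lowest of all 39 at 1.17 ± 0.28 CPM per kilobase.

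In the order of levels of the PBS tumours, 28 of the 38 pairs of neighbouring genes had overlapping libraries, so most single steps in that order are within the spread between mice. The order was nearly the same in every treatment group, with no gene moving by more than 5 ranks and a lowest Spearman coefficient of 0.985 between a treatment group and PBS over the 39 genes, given as a description of genes that share libraries.

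**Figure D1:**
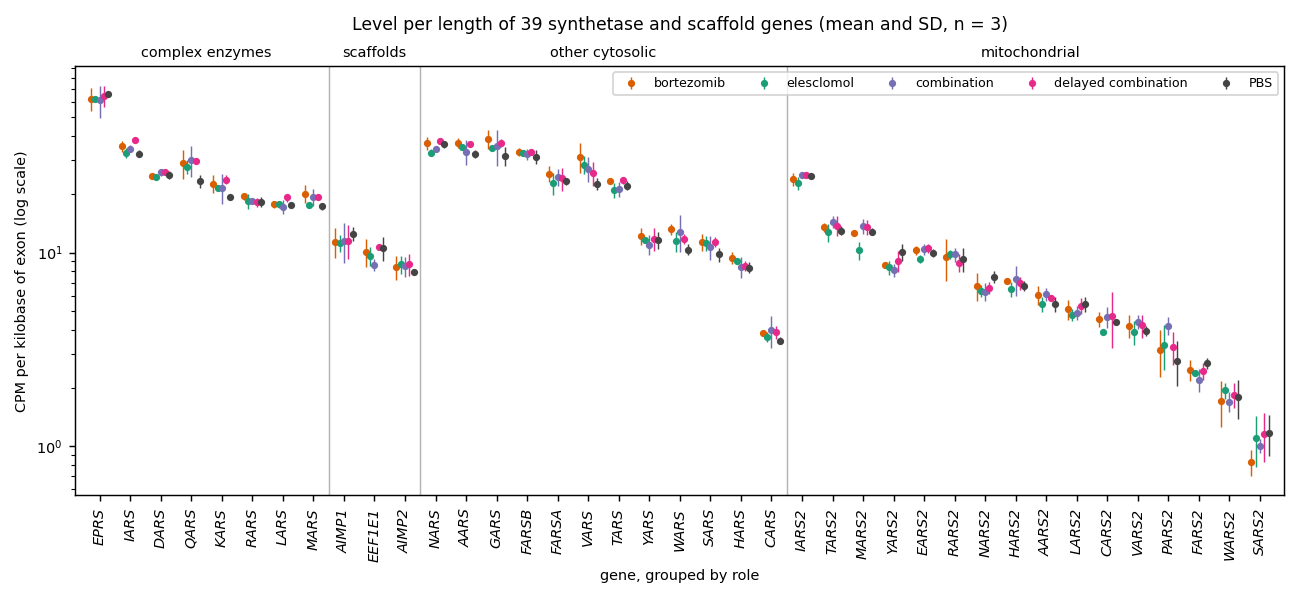
Mean level of each of the 39 genes in CPM per kilobase of exon (log axis) with the SD over 3 libraries as bars, grouped by role and coloured by treatment, PBS drawn last in each cluster of 5 points. Cytosolic genes fill the upper part of the plot, with EPRS highest, and the 5 points of most genes lie close together.

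No member passed the test in any of the 9 comparisons (edgeR quasi-likelihood test, Benjamini-Hochberg adjusted p under 0.05 over 13085 genes). The share of all genes called was 0% for bortezomib, the combination and the delayed combination against PBS, 0.0688% (9 genes) for elesclomol against PBS, 0% for the 4 comparisons between treatments and 0.00764% (1 gene) for the interaction. DESeq2 also called none of the 39 in any comparison. Limma voom with library weights called VARS against PBS in bortezomib tumours, and QARS, PARS2, WARS and NARS2 in combination tumours. That is 1 and 4 of 39, beside 5.48% and 10.8% of all genes called by that tool in the same comparisons. Its weights were 0.391, 0.555 and 3.03 for bortezomib 1 to 3 and 0.339, 0.653 and 3.15 for combination 1 to 3. The limma voom calls of members, here and below, thus lean most on bortezomib 3 and combination 3.

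Most changes were bounded to a narrow range. Errors given with log2 changes are standard errors. The 95% interval of the log2 change against PBS lay within a 1.5-fold change in either direction for 33 of 39 members with bortezomib, 36 with elesclomol, 33 in the combination and 36 in the delayed combination. It lay within a 2-fold change for 38, 39, 38 and 39 of them. The exceptions were the low genes SARS2 with bortezomib, from -1.11 to 0.17, and PARS2 in the combination, from 0.09 to 1.16.

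**Figure D2:**
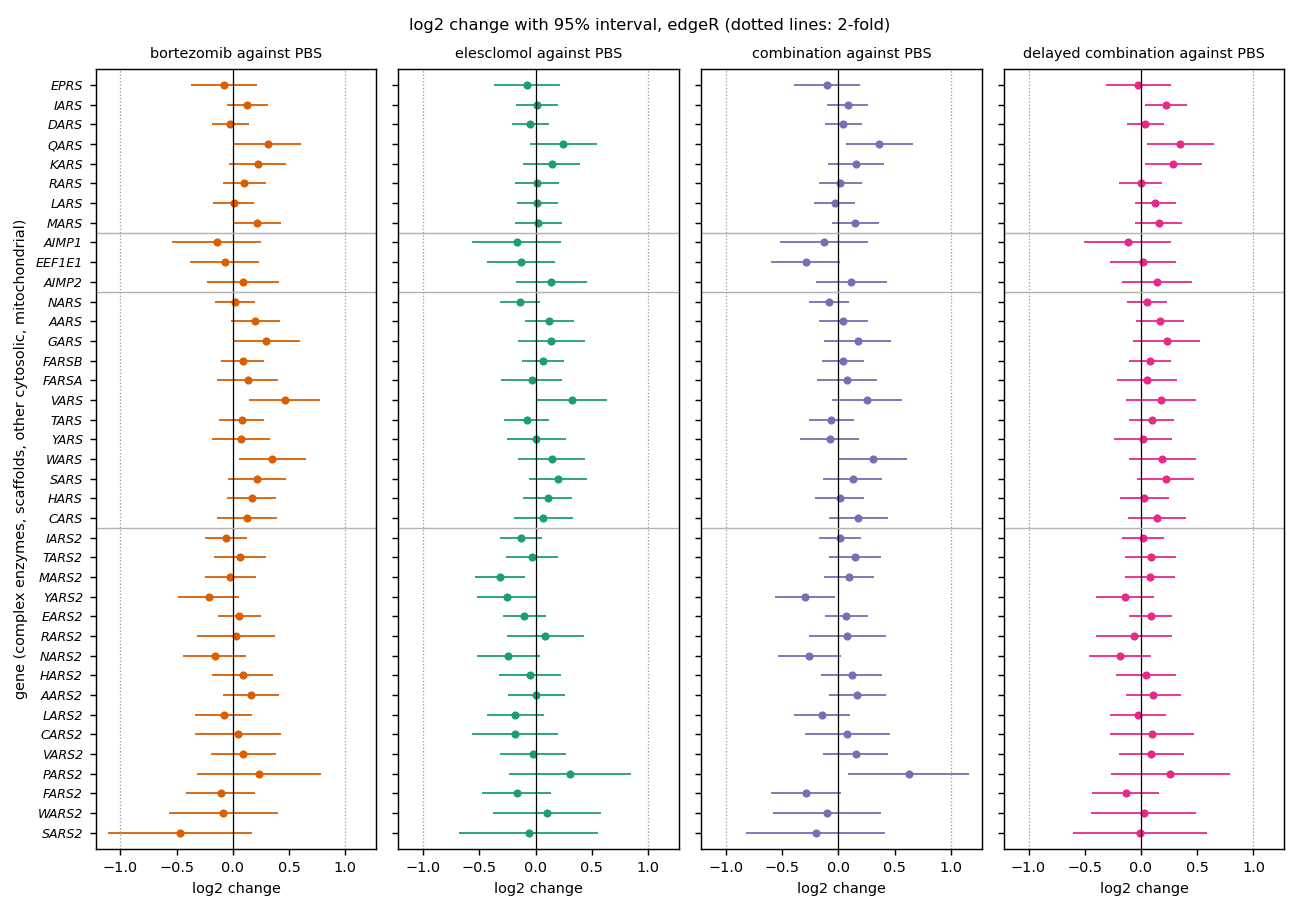
The log2 change of each member against PBS from the edgeR fit, with its 95% interval as a bar, 1 panel for each treatment; genes run down the page by role and by level, and dotted lines mark a 2-fold change in either direction. Most points lie within 0.3 of 0, those of the other cytosolic synthetases lie right of 0 in the bortezomib and delayed combination panels, and PARS2 and SARS2 have the widest bars.

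All 4 treatments were set against the same 3 PBS libraries, so a shift of those libraries enters each comparison. The members also share libraries, so counts of members above 0 are descriptions and not counts of independent results. Bortezomib tumours had 27 of 39 members above 0 in log2 change, with a median of 0.08 (0.02 over all genes tested). Elesclomol tumours had 20 above 0 with a median of 0.00 (0.00 over all genes). The combination had 26 above 0 with a median of 0.07 (0.01 over all genes), and the delayed combination 30 with a median of 0.08 (0.01 over all genes).

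Cytosolic and mitochondrial enzymes were counted apart, and the difference between these sets was not tested. Of the 20 cytosolic synthetases, 18 had a log2 change above 0 with bortezomib (median 0.13), 15 with elesclomol (median 0.04), 15 in the combination (median 0.06) and 18 in the delayed combination (median 0.13). Of the 16 mitochondrial synthetases, 8, 4, 10 and 10 did in the same order of treatments, with medians of 0.00, -0.08, 0.08 and 0.04. Without the 3 GC-rich libraries the cytosolic counts were 18, 15, 17 and 19 of 20 and the mitochondrial counts 7, 4, 11 and 10 of 16, while the median over all 39 was 0.06, 0.01, 0.03 and 0.04. With offsets for GC content and gene length the cytosolic counts were 18, 13, 15 and 18 and the mitochondrial counts 5, 3, 7 and 9. The summed cytosolic level was 2485 to 2666 CPM with bortezomib, 2417 to 2460 CPM with elesclomol, 2274 to 2646 CPM in the combination, 2550.1 to 2604 CPM in the delayed combination and 2298 to 2412 CPM with PBS. Every library of the bortezomib, elesclomol and delayed groups thus lay above the PBS libraries in this sum, while the combination libraries spanned them. The summed mitochondrial level overlapped PBS in the bortezomib, elesclomol and delayed groups, and in the combination it was 527 to 533 CPM against 504 to 526 CPM with PBS.

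Counts below the adjusted threshold were read against all genes. At an unadjusted p under 0.05 in the edgeR test, bortezomib had 4 members higher (VARS, WARS, QARS and MARS; 6.76% of all genes) and 0 lower (3.84%). Elesclomol had VARS higher (4.88% of all genes) and MARS2 lower (3.19%). The combination had QARS, PARS2 and WARS higher (7.72%) and YARS2 lower (5.92%), and the delayed combination had IARS, QARS and KARS higher (6.03%) and 0 lower (5.03%). No treatment had more than 4 of the 39 in one direction, which is near the share over all genes.

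The libraries of bortezomib and PBS tumours did not overlap for 5 members higher (10.5% of all genes) and 1 lower (9.61%). With elesclomol 5 were higher (9.55%) and 7 lower (10.2%), and in the combination 3 were higher (11.3%) and 1 lower (10.9%). In the delayed combination 9 were higher (12.8%) and 0 lower (14.7%), and these 9 were all cytosolic: IARS, QARS, KARS, SARS, AARS, GARS, MARS, LARS and WARS.

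Among the enzymes of the multisynthetase complex, EPRS, IARS, DARS, QARS, KARS, RARS, LARS and MARS, 6 of 8 had a log2 change above 0 in each treatment, and the medians were 0.11 with bortezomib, 0.01 with elesclomol, 0.06 in the combination and 0.14 in the delayed combination. QARS, the glutamine enzyme, had the largest positive values of the 8. It stood at 155, 111 and 145 CPM with bortezomib, 142, 120.1 and 131 CPM with elesclomol, 163, 113 and 149 CPM in the combination, 139, 139.5 and 143 CPM in the delayed combination and 106, 105 and 120.0 CPM with PBS. All elesclomol and delayed combination libraries were above the highest PBS library, and bortezomib 2 and combination 2 lay among the PBS libraries. Its log2 change was 0.31 ± 0.14 (SE) with bortezomib, 0.25 ± 0.14 with elesclomol, 0.36 ± 0.14 in the combination and 0.35 ± 0.14 in the delayed combination, with edgeR adjusted p of 0.465, 0.703, 0.318 and 0.421. With offsets for GC content and gene length the bortezomib value was 0.20, and without the GC-rich libraries it was 0.21.

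KARS, the lysine enzyme, stood at 101, 81.5 and 93.9 CPM with bortezomib, 86.4, 87.8 and 87.8 CPM with elesclomol, 104, 72.0 and 89.1 CPM in the combination, 94.4, 103 and 93.1 CPM in the delayed combination and 78.8, 80.9 and 77.7 CPM with PBS. Its combination 2 library was the lowest of the 15, and every bortezomib, elesclomol and delayed library was above PBS. The fitted log2 change was 0.29 ± 0.12 in the delayed combination (edgeR adjusted p = 0.427). KARS was also one of 4 members whose GC-rich libraries did not overlap the other 12.

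IARS stood at 279.7, 264 and 245 CPM with bortezomib, 226, 256 and 246 CPM with elesclomol, 248, 248.9 and 267 CPM in the combination, 272, 291 and 279.9 CPM in the delayed combination and 228, 247 and 246 CPM with PBS. The delayed libraries were above all PBS and all combination libraries, and the combination libraries were also above PBS by a small margin. The log2 change of the delayed combination against PBS was 0.22 ± 0.09 (edgeR adjusted p = 0.416).

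EPRS stood at 288, 362 and 369 CPM with bortezomib, 348, 343 and 329 CPM with elesclomol, 265, 349 and 389 CPM in the combination, 365, 303 and 390.2 CPM in the delayed combination and 363, 355 and 356 CPM with PBS. Its 3 lowest libraries were the 3 GC-rich ones, at 265 to 303 CPM, while the other 12 lay between 329 and 390.2 CPM, and all 3 elesclomol libraries were below PBS. The log2 change against PBS was between -0.10 and -0.02 in all 4 treatments, each with an SE of 0.14. AIMP1, the scaffold gene with the lowest GC content of the 39 (36.3%), did the same, at 28.3 to 30.4 CPM in the GC-rich libraries and 34.4 to 45.5 CPM in the other 12. FARSA and KARS were higher in the GC-rich libraries than in the other 12. Over all genes, 4.07% were higher and 10.1% lower in the GC-rich libraries without overlap; of the members, 2 (5.13%) were higher and 2 (5.13%) lower. The part of base composition in these 4 was not tested.

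The scaffolds hold the complex together, and EEF1E1 is also known as AIMP3 and binds MARS. With bortezomib, elesclomol and the combination 1 of the 3 scaffolds had a log2 change above 0, AIMP2 each time, and with the delayed combination 2 did. AIMP2 stood at 16.8, 13.0 and 16.6 CPM with bortezomib, 14.3, 15.96 and 17.7 CPM with elesclomol, 17.8, 14.3 and 14.96 CPM in the combination, 17.7, 16.8 and 13.6 CPM in the delayed combination and 14.2, 14.9 and 14.4 CPM with PBS. Each treated group overlapped PBS, whose 3 libraries were the closest together. EEF1E1 stood at 17.4, 22.1 and 24.4 CPM with bortezomib, 19.3, 23.0 and 18.6 CPM with elesclomol, 18.6, 19.2 and 16.8 CPM in the combination, 23.0, 23.1 and 21.6 CPM in the delayed combination and 18.7, 24.7 and 23.0 CPM with PBS. Its combination libraries were low, and all 3 delayed libraries were above them. On the log2 scale the change was -0.29 ± 0.14 in the combination against PBS (edgeR adjusted p = 0.386) and 0.31 ± 0.14 in the delayed combination against the combination (edgeR adjusted p above 0.99). AIMP2 shares 28.9% of its exon bases with EIF2AK1 on the opposite strand and EEF1E1 18.7% with a readthrough transcript on its own strand, so their counts are uncertain.

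Of the 12 cytosolic genes outside the complex, 12 had a log2 change above 0 with bortezomib (median 0.15, from 0.02 to 0.46) and 12 in the delayed combination (median 0.12, from 0.02 to 0.23). These genes share the same libraries, so the counts are a description and not independent results. With elesclomol 9 of 12 did (median 0.09) and in the combination 9 of 12 (median 0.06). Without the GC-rich libraries these counts were 11, 9, 9 and 12, in the order bortezomib, elesclomol, combination and delayed combination.

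VARS, the valine enzyme, had the highest change of all 39 with bortezomib. It stood at 196, 155 and 220.2 CPM with bortezomib, 192, 155 and 172 CPM with elesclomol, 180.0, 136 and 179 CPM in the combination, 133, 175 and 161 CPM in the delayed combination and 130.3, 136 and 149 CPM with PBS. Bortezomib and elesclomol libraries were all above PBS, and each of the other treated groups had 1 library among them. The log2 change was 0.46 ± 0.15 with bortezomib (edgeR adjusted p = 0.419) and 0.32 ± 0.15 with elesclomol (edgeR adjusted p = 0.614), and limma voom gave 0.58 ± 0.11 with an adjusted p of 0.0198 for bortezomib. VARS has the highest GC content of the 39 (62.6%), and with offsets for GC content and length its edgeR values were 0.30 with bortezomib and 0.18 with elesclomol.

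WARS, the tryptophan enzyme and a gene that interferon gamma is known to induce, stood at 89.96, 82.9 and 78.7 CPM with bortezomib, 74.2, 63.0 and 80.6 CPM with elesclomol, 89.8, 61.2 and 93.2 CPM in the combination, 73.6, 71.4 and 80.2 CPM in the delayed combination and 70.7, 62.6 and 64.2 CPM with PBS. Bortezomib and delayed combination libraries were above PBS, and combination 2 was the lowest of the 15. The fitted log2 change was 0.35 ± 0.14 with bortezomib (edgeR adjusted p = 0.453) and 0.31 ± 0.14 in the combination (edgeR adjusted p = 0.36). Of 14 tested genes of the interferon gamma response, 11 had a log2 change above 0 with bortezomib (median 0.12) and 3 in the combination (median -0.25), and none passed.

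AARS, the alanine enzyme, stood at 175, 155 and 170.0 CPM with bortezomib, 159, 158 and 157 CPM with elesclomol, 149.8, 127 and 172 CPM in the combination, 160.0, 165 and 165 CPM in the delayed combination and 139, 144 and 152 CPM with PBS. Its bortezomib, elesclomol and delayed libraries were all above PBS, by little, and combination 2 was the lowest of the 15. On the log2 scale the change was 0.20 ± 0.10 with bortezomib and 0.17 ± 0.10 in the delayed combination (edgeR adjusted p = 0.483 and 0.506).

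GARS, the glycine enzyme, stood at 173, 139 and 169.8 CPM with bortezomib, 144, 149.6 and 139 CPM with elesclomol, 165, 111 and 165 CPM in the combination, 161, 152 and 147 CPM in the delayed combination and 114, 139 and 139 CPM with PBS. PBS 1 and combination 2 were its lowest libraries, and only the elesclomol and delayed groups lay wholly above PBS. Its log2 change was 0.30 ± 0.14 with bortezomib (edgeR adjusted p = 0.471). CARS stood at 38.1, 39.8 and 37.4 CPM with bortezomib, 35.5, 35.8 and 39.4 CPM with elesclomol, 43.6, 31.1 and 44.7 CPM in the combination, 40.8, 40.2 and 35.7 CPM in the delayed combination and 34.1, 34.9 and 36.7 CPM with PBS. Bortezomib libraries were above PBS and the combination had both the highest and the lowest libraries of the 15. The log2 change of CARS was at most 0.18 in any treatment.

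For these cytosolic genes 1 library of the combination stood low. Combination 2 was the lowest of the 15 for KARS, WARS, AARS, GARS and CARS and the lowest of its group for QARS and VARS, and its cytosolic sum of 2274 CPM was the lowest of all, against 2499 and 2646 CPM in combination 1 and 3. Its total count (6448673) and its summed markers of other marrow cell types (190.2 CPM) were within the range of the other libraries. Its coefficient with GC content was -0.253, against 0.494 and 0.0839 in combination 1 and 3. That of elesclomol 2 was -0.272 and those of the PBS libraries were -0.348 to -0.293. Bortezomib 2, with a coefficient of -0.310, was the lowest of its group for VARS, QARS, KARS, AARS and GARS. It was the middle library of its group for WARS, at 82.9 CPM, and the highest for CARS, NARS and LARS, at 39.8, 157 and 151 CPM. The reason for the low levels of combination 2 was not tested.

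**Figure D3:**
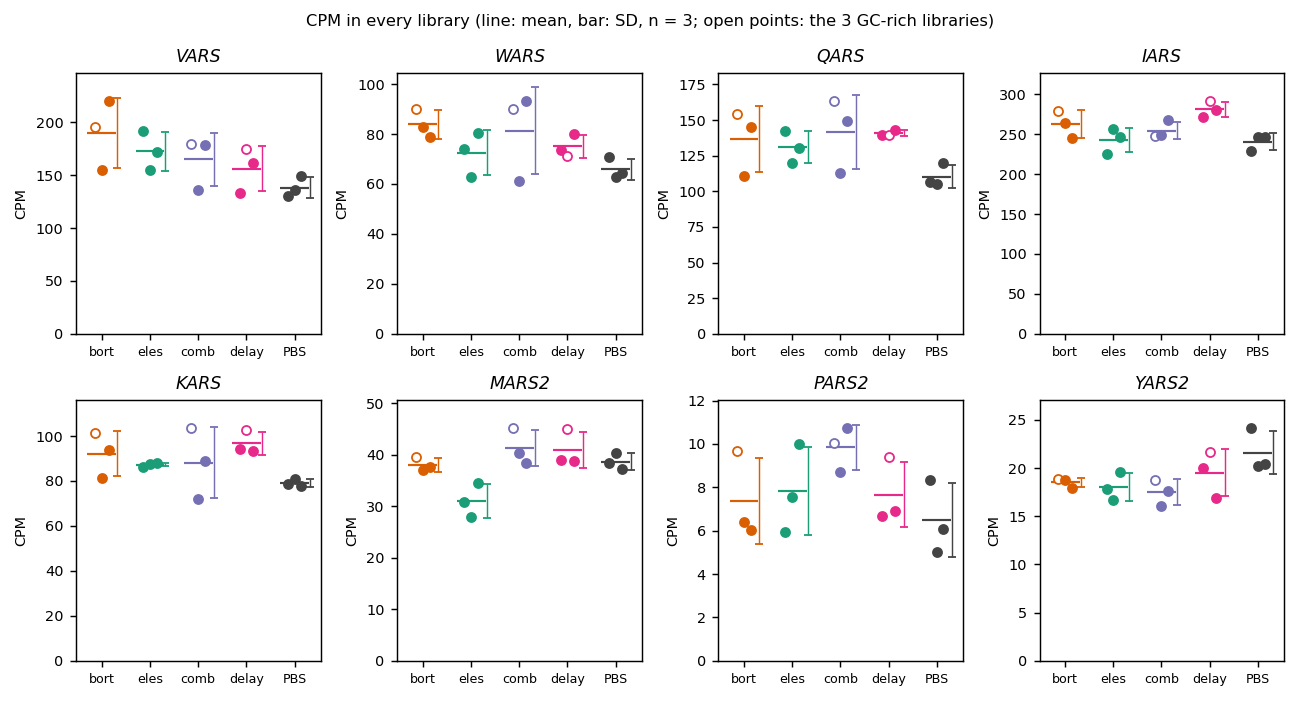
Level in CPM of 8 members in each of the 15 libraries (points), with the group mean as a line and the SD over 3 libraries as a bar, PBS at the right of each panel; open points are the 3 GC-rich libraries. VARS, WARS and QARS show most treated libraries above PBS. Each has 1 low combination library and 1 library of another treatment within the PBS range. MARS2 is low with elesclomol alone, and YARS2 is below PBS in 3 of the treatments.

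The mitochondrial enzymes charge the tRNAs encoded in mitochondrial DNA, and all are made from nuclear genes. Their changes went both ways, and MARS2, for methionine, had the smallest p of the 16 with elesclomol. It stood at 39.6, 37.0 and 37.6 CPM with bortezomib, 30.8, 27.9 and 34.5 CPM with elesclomol, 45.2, 40.3 and 38.4 CPM in the combination, 38.99, 45.0 and 38.7 CPM in the delayed combination and 38.4, 40.4 and 37.2 CPM with PBS. The 3 elesclomol libraries were the 3 lowest of the 15 and overlapped no other group. The log2 change was -0.32 ± 0.11 with elesclomol against PBS (edgeR adjusted p = 0.476) and 0.41 ± 0.11 in the combination against elesclomol (edgeR adjusted p = 0.204). The interaction, which asks whether the combination differs from the sum of both drugs' changes, was 0.43 ± 0.15 for MARS2 (edgeR adjusted p = 0.44). MARS2 shares no exon bases with another gene. Its elesclomol value lay between -0.40 and -0.25 as each library was left out in turn, including elesclomol 1 with its erythroid and granulocyte markers.

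YARS2, for tyrosine, stood at 18.9, 18.7 and 17.9 CPM with bortezomib, 17.8, 16.7 and 19.6 CPM with elesclomol, 18.8, 16.1 and 17.6 CPM in the combination, 19.999, 21.7 and 16.9 CPM in the delayed combination and 24.2, 20.3 and 20.4 CPM with PBS. All libraries of the first 3 treatments were below PBS, and in the delayed group 1 of 3 was among the PBS libraries. The fitted log2 change was -0.22 ± 0.13 with bortezomib, -0.26 ± 0.13 with elesclomol and -0.30 ± 0.13 in the combination (edgeR adjusted p = 0.508, 0.648 and 0.34). NARS2, for asparagine, stood at 19.0, 25.1 and 19.5 CPM with bortezomib, 21.6, 19.0 and 19.4 CPM with elesclomol, 19.3, 22.1 and 18.1 CPM in the combination, 19.3, 22.4 and 20.7 CPM in the delayed combination and 25.1, 24.2 and 21.8 CPM with PBS. Elesclomol libraries were all below PBS and each of the other treated groups overlapped it by 1 library. Its log2 change was lowest in the combination, at -0.26 ± 0.13 (edgeR adjusted p = 0.399), where limma voom gave -0.33 ± 0.10 with an adjusted p of 0.0492; in the delayed combination it was the lowest of the 39 at -0.19 ± 0.13.

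PARS2, for proline, had the highest change of the 39 in the combination and is the fourth lowest in level. It stood at 9.66, 6.40 and 6.04 CPM with bortezomib, 5.94, 7.56 and 9.98 CPM with elesclomol, 10.1, 8.72 and 10.7 CPM in the combination, 6.69, 9.39 and 6.89 CPM in the delayed combination and 8.35, 5.03 and 6.06 CPM with PBS. The combination libraries were above PBS and the other treated groups overlapped PBS. On the log2 scale the change was 0.63 ± 0.25 (edgeR adjusted p = 0.325).

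SARS2, for serine, had the lowest change of the 39 with bortezomib. It stood at 3.11, 2.29 and 2.64 CPM with bortezomib, 2.44, 4.48 and 3.77 CPM with elesclomol, 3.20, 3.01 and 3.53 CPM in the combination, 3.60, 4.83 and 2.76 CPM in the delayed combination and 4.74, 3.66 and 2.94 CPM with PBS. Each treated group overlapped PBS. The log2 change was -0.47 ± 0.30 (edgeR adjusted p = 0.539), from -0.63 without PBS 3 to -0.29 without PBS 1, and 46.2% of its exon bases are shared on the same strand and 10.8% on the opposite strand with the annotated genes AC011455.2 and MRPS12, so its count is uncertain.

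IARS2, the highest of the mitochondrial enzymes, stood at 108, 93.9 and 97.1 CPM with bortezomib, 94.0, 87.9 and 103 CPM with elesclomol, 107, 107 and 101 CPM in the combination, 107, 104 and 105 CPM in the delayed combination and 106, 99.8 and 106 CPM with PBS. LARS2, for leucine, stood at 39.2, 31.2 and 33.8 CPM with bortezomib, 31.2, 35.3 and 31.0 CPM with elesclomol, 30.6, 36.2 and 33.3 CPM in the combination, 38.2, 38.5 and 32.2 CPM in the delayed combination and 35.0, 34.9 and 40.7 CPM with PBS. Both overlapped PBS in every treatment, with log2 changes between -0.18 and 0.02. Of the 13 other genes of mitochondrial translation tested (initiation, elongation and release factors and the amidotransferase that makes Gln-tRNA), 4 had a log2 change above 0 with bortezomib, 6 with elesclomol, 5 in the combination and 5 in the delayed combination, and none passed.

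**Figure D4:**
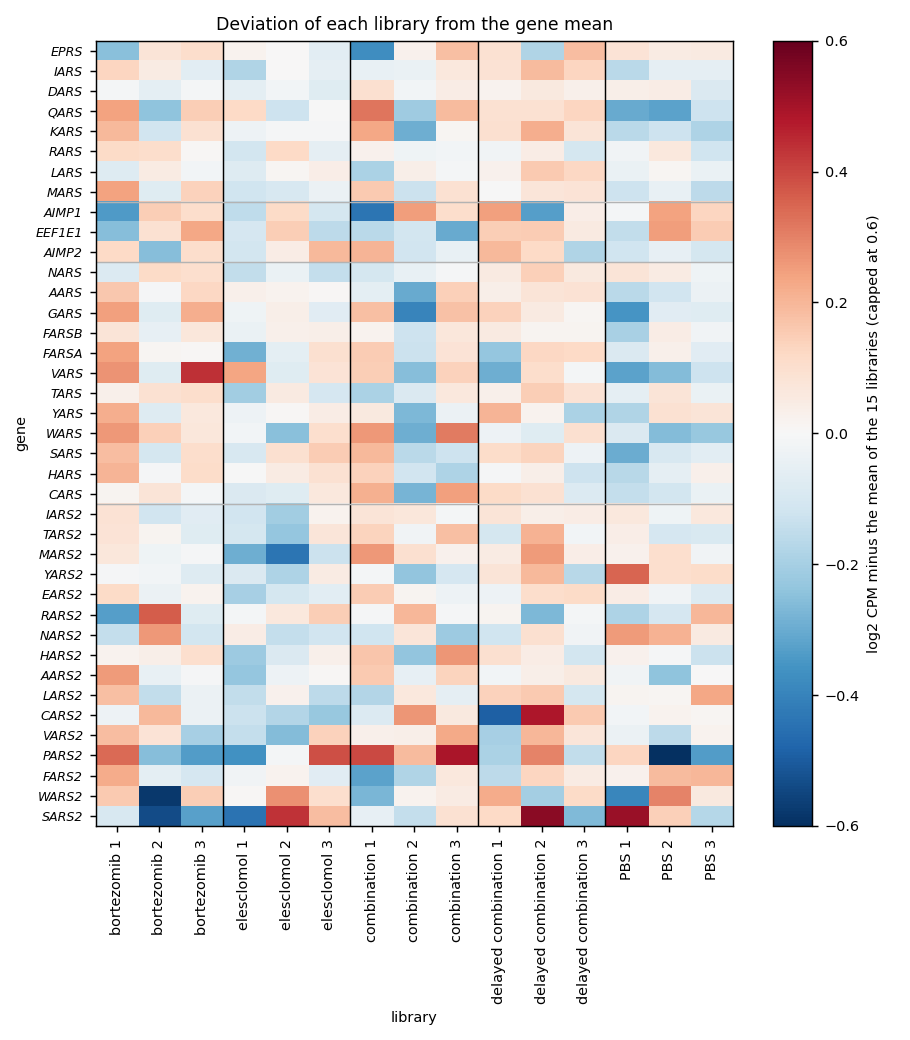
Each library's log2 CPM minus the mean of the 15 libraries, for all 39 genes (rows, by role) and the 15 libraries (columns, PBS at the right); colours are capped at 0.6 in either direction. Rows of low genes (PARS2, WARS2, SARS2) are the most uneven, combination 2 is blue for many cytosolic genes, and the elesclomol libraries are blue for MARS2.

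No member passed in the comparisons between treatments either. In the combination against bortezomib 16 of 39 had a log2 change above 0 (median -0.04; all genes -0.01) and 0 passed even an unadjusted p under 0.05 in the edgeR test, which 4.23% of all genes did. Libraries of these groups with the same number deviate together, and with the replicate block 0 members had an unadjusted p under 0.05 in the fit of all groups (4.18% of all genes). In a fit of combination and bortezomib alone with the block, chosen after seeing the data, VARS alone did, at -0.19 ± 0.08 (edgeR adjusted p = 0.484; 9.56% of all genes had an unadjusted p under 0.05). Pair by pair, 5 members were higher in the combination in all 3 pairs (DARS, MARS2, PARS2, QARS and SARS2; 14.9% of all genes) and 10 were lower in all 3 (FARSB, GARS, HARS, MARS, NARS, RARS, TARS, VARS, YARS and YARS2; 18.1% of all genes). In the combination against elesclomol 23 were above 0 (median 0.03; all genes -0.01) and MARS2 alone had an unadjusted p under 0.05, beside 12.2% of all genes. In the delayed combination against bortezomib 23 were above 0 (median 0.02; all genes -0.01) and 0 had an unadjusted p under 0.05, beside 3.52% of all genes. In the delayed combination against the combination 25 were above 0 (median 0.02; all genes 0.00) and EEF1E1 alone had an unadjusted p under 0.05, beside 2.63% of all genes. For the interaction MARS2 and VARS did, beside 8.79% of all genes; VARS had the lowest value at -0.52 ± 0.21 (edgeR adjusted p = 0.487), its values being 0.46 with bortezomib, 0.32 with elesclomol and 0.25 in the combination against PBS.

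The cytosolic synthetases were also split by what is known of their regulation. Of the 12 on a list of known ATF4 targets (AARS, CARS, EPRS, GARS, IARS, LARS, MARS, NARS, SARS, TARS, WARS and YARS), 11 had a log2 change above 0 with bortezomib (median 0.13), 9 with elesclomol (median 0.02), 7 in the combination (median 0.06) and 11 in the delayed combination (median 0.15). Of the other 8, the counts were 7, 6, 8 and 7 with medians of 0.15, 0.08, 0.06 and 0.07. The difference between these sets was not tested.

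ATF4 acts with a partner at an element that pairs the recognition sites of both families, with a core of TGATGCAA. RefSeq promoter windows, from 250 bases before to 50 bases after each start on GRCh38.p14, were matched for 33 of the 39 members, and they were searched for TGATGCAA on both strands. It was present in 6 of the 33 members, against 0.866% of all 35116 windows and 1.08% of the 27305 genes with a window. All 6 are cytosolic (6 of the 16 matched) and all 6 are on the ATF4 list (6 of the 10 matched there), and none of the 14 matched mitochondrial enzymes had it. With the looser TGATGNAA, which includes TGATGCAA, 8 of 33 members had a match, GARS and YARS2 being added, against 3.62% of windows and 4.46% of genes. The 6 stretches follow with their gene's strand, since they are the matches behind this count; each runs 5′ to 3′ along the gene over 30 bases and the capitals are the match, read in the gene's direction for NARS and as its reverse complement TTGCATCA for the others.
AARS, chr16:70289675-70289704 (minus), first capital 187 bases before the start: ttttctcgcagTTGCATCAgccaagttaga
CARS, chr11:3057407-3057436 (minus), first capital 2 bases before the start: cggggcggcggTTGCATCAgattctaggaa
IARS, chr9:92293692-92293721 (minus), first capital 13 bases before the start: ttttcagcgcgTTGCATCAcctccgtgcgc
MARS, chr12:57488053-57488082 (plus), first capital 4 bases before the start: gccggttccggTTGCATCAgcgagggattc
TARS, chr5:33440956-33440985 (plus), first capital at base 3 of the transcript: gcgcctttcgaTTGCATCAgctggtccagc
NARS, chr18:57621804-57621833 (minus), first capital at base 15 of the transcript: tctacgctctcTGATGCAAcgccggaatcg

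In 5 of the 6 the first base of the match lies within 15 bases of the start, and in AARS it lies further upstream. A match of letters is not a measured binding site. The log2 changes of the 6 genes with bortezomib were 0.20 for AARS, 0.12 for CARS, 0.13 for IARS, 0.22 for MARS, 0.02 for NARS and 0.08 for TARS, beside the median of 0.13 over all 20 cytosolic synthetases. The windows of DARS, LARS, VARS, YARS, AARS2 and VARS2 were not matched.

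Other genes of the ATF4 response had larger median changes than the members as a whole, a difference that was not tested, and none passed the test. Of 26 tested, 20 had a log2 change above 0 with bortezomib (median 0.28), 16 with elesclomol (median 0.05), 18 in the combination (median 0.23) and 20 in the delayed combination (median 0.24). SLC7A5 and SLC3A2 encode the light and heavy chains of an amino acid transporter, and they had the smallest p of this list with bortezomib. SLC7A5 stood at 104, 67.5 and 90.1 CPM with bortezomib, 64.6, 67.5 and 79.1 CPM with elesclomol, 90.6, 52.0 and 81.0 CPM in the combination, 71.6, 84.6 and 65.2 CPM in the delayed combination and 44.0, 47.7 and 56.4 CPM with PBS. All its treated libraries but combination 2 were above PBS, and the log2 change was 0.82 ± 0.20 with bortezomib and 0.51 ± 0.20 with elesclomol (edgeR adjusted p = 0.419 and 0.547). SLC3A2 had a log2 change of 0.44 ± 0.14 with bortezomib and 0.45 ± 0.14 in the combination (edgeR adjusted p = 0.419 and 0.28). Its 3 highest libraries were the GC-rich ones, at 126, 141 and 121 CPM in bortezomib 1, combination 1 and delayed combination 2.

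Values below 0 were found on the same list. ATF3, a stress-induced transcription factor, had log2 changes of -0.97 ± 0.35 with elesclomol, -1.14 ± 0.36 in the combination and -1.44 ± 0.35 in the delayed combination (edgeR adjusted p = 0.503, 0.275 and 0.252). PPP1R15A, which directs the removal of the phosphate from eIF2, stood at 43.0, 47.5 and 40.2 CPM with bortezomib, 25.1, 36.3 and 19.4 CPM with elesclomol, 42.5, 20.1 and 20.5 CPM in the combination, 15.1, 18.0 and 19.1 CPM in the delayed combination and 44.0, 43.4 and 38.9 CPM with PBS. Each delayed library was below every library of the other groups, and the log2 change there was -1.28 ± 0.27 (edgeR adjusted p = 0.213).

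EIF2AK4 encodes GCN2, the kinase that senses uncharged tRNA, and among the translation genes it had the smallest p. It stood at 78.6, 112 and 93.9 CPM with bortezomib, 126, 149.4 and 138 CPM with elesclomol, 104, 95.9 and 110.4 CPM in the combination, 91.5, 66.4 and 85.0 CPM in the delayed combination and 93.9, 70.1 and 68.9 CPM with PBS. All 3 elesclomol libraries were above every other library, and the combination was above PBS. The fitted log2 change was 0.83 ± 0.15 with elesclomol (edgeR adjusted p = 0.0677) and 0.42 ± 0.15 in the combination (edgeR adjusted p = 0.311). Of the 6 eIF2 kinases and GCN2 partners, 5 had a log2 change above 0 with elesclomol; GCN1, the partner of GCN2 on ribosomes, was at 0.29 ± 0.10 with bortezomib and 0.22 ± 0.10 with elesclomol, and EIF2AK2, the kinase PKR, at -0.51 ± 0.22 in the combination and -0.35 ± 0.22 in the delayed combination. EIF2AK4 was at 0.29 ± 0.15 with bortezomib and EIF2AK1 at 0.13 ± 0.10 in the delayed combination, and none of these passed. The 3 lowest EIF2AK2 libraries were the GC-rich ones, at 58.1, 51.6 and 65.2 CPM in bortezomib 1, combination 1 and delayed combination 2. The part of base composition in this was not tested.

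Elongation factors carry charged tRNA to the ribosome and move it along. The list of cytosolic elongation held elongation factors and EEF2K, which is the kinase of EEF2 and not itself an elongation factor. Of the 6 genes tested, 6 had a log2 change above 0 with bortezomib (median 0.12), 4 with elesclomol (median 0.09), 5 in the combination (median 0.23) and 6 in the delayed combination (median 0.17). EIF5A was at 0.41 ± 0.14 with bortezomib, 0.29 ± 0.14 with elesclomol and 0.32 ± 0.14 in the delayed combination. EEF2, which moves the ribosome along, was at 0.35 ± 0.15 with bortezomib, 0.37 ± 0.15 in the combination and 0.33 ± 0.15 in the delayed combination, EEF2K at 0.32 ± 0.13 in the combination and EEF1B2 at -0.23 ± 0.12 with elesclomol. Of 14 genes of tRNA export, repair and editing, 6, 5, 6 and 8 were above 0, in the order bortezomib, elesclomol, combination and delayed combination. TRNT1, which adds the CCA end that synthetases charge, was at -0.53 ± 0.21 with bortezomib, -0.46 ± 0.21 with elesclomol and -0.46 ± 0.21 in the combination. SEPSECS, of selenocysteine tRNA, was at -0.45 ± 0.22 in the combination and -0.44 ± 0.21 in the delayed combination. Its 3 lowest libraries were the GC-rich ones, at 12.7, 12.5 and 15.9 CPM in bortezomib 1, combination 1 and delayed combination 2. The part of base composition in this was not tested.

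Of the same list NSUN2 was at 0.24 ± 0.11 with bortezomib, POP1 at -0.30 ± 0.15 with elesclomol and ELAC2, which trims the tRNA end, at 0.24 ± 0.12 in the delayed combination. Among the genes of mitochondrial translation TUFM, the elongation factor, was at 0.27 ± 0.12 with bortezomib, 0.19 ± 0.12 with elesclomol and 0.25 ± 0.12 in the delayed combination. GATB, of the amidotransferase, was at 0.25 ± 0.14 with bortezomib and 0.26 ± 0.14 with elesclomol, GFM1 and GFM2 at -0.18 ± 0.08 and -0.29 ± 0.13 in the combination, and MTIF2 at -0.23 ± 0.15 in the delayed combination. The 3 lowest MTIF2 libraries were the GC-rich ones, at 42.6, 37.8 and 45.2 CPM in bortezomib 1, combination 1 and delayed combination 2. Of the interferon gamma list STAT2 was at -0.25 ± 0.11 with bortezomib, -0.14 ± 0.11 with elesclomol, -0.25 ± 0.11 in the combination and -0.32 ± 0.11 in the delayed combination. CXCL9 was at 1.45 ± 0.81 with bortezomib and 1.84 ± 0.75 in the delayed combination. Its levels were low, at 0.173 to 1.13 CPM with PBS and 1.83 to 2.08 CPM with bortezomib. Delayed combination 2 stood at 5.65 CPM and the other delayed libraries at 0.502 and 1.78 CPM. CIITA was at -0.44 ± 0.19 with elesclomol and -0.50 ± 0.19 in the delayed combination. None of the genes on these lists passed in a comparison with PBS (edgeR, smallest adjusted p 0.0677, for EIF2AK4).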

How the data were processed

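Per the labels' protocols, Trizol RNA was depleted of rRNA (Ribo-Zero Gold) and prepared with the TruSeq Stranded kit. The authors deposited 1 table of whole-number counts per gene, not normalized; STAR 2.5.4b, featureCounts 1.6.1 and GRCh37 are named in the submitters' processing notes. For strand setting, annotation release and treatment of mouse reads, the answer is not given in the sources used here, so genes that share exon bases are uncertain. Symbols, exon lengths, GC content and overlaps came from GENCODE 29, which matched 52338 of 57773 identifiers; GC content and length were had for 12794 of the 13085 genes tested and all 39 members.

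Counts were filtered (filterByExpr, minimum count 10), scaled by TMM and fitted with edgeR 4.0.16 (R 4.3.3) in 1 group model over 15 libraries, using the robust quasi-likelihood test and Benjamini-Hochberg adjustment over all genes tested at 0.05. The steps were first tested on simulated data. Totals of 4500326 to 13161087 counts put the lowest member, SARS2, at 14 to 53 counts a library, so its values carry the widest errors. DESeq2 1.42.0, limma 3.58.1 voom with quality weights, RLE scaling, other filters, fits of only the groups compared, a replicate block, loess offsets on GC content and length, and leaving out each library or the 3 GC-rich libraries were the alternatives. Tables and figures were made with Python 3.11.15, pandas 2.3.3, scipy 1.17.1 and matplotlib 3.10.9. No library was a copy of another of its group.

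The members and lists were chosen with earlier results of these data known. Values in every library are given for the 3 members with the smallest p and the highest and lowest change in each comparison with PBS and for 9 members fixed by name; of the other lists, the 2 genes with the smallest p in each comparison with PBS are named, except 1 that is not reported here. Libraries of combination and bortezomib numbered 1 and 2 deviated together (correlations 0.655 and 0.523 over all genes). For number 3 the correlation was 0.118, below the 0.222 of combination 3 with bortezomib 2. Combination 1 also correlated with delayed combination 2 (0.473), another GC-rich library. The labels give no source for a pairing, and the reason was not tested.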

Additional observations from a re-analysis of the deposited data

How the results depend on the processing

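Over 143 other settings of the 9 comparisons, 141 called 0 members; the exceptions were limma voom for bortezomib (1 member) and the combination (4 members) against PBS. Of the values of named members under these settings none changed direction, 262 stayed on the same side of the threshold and 3 passed the threshold that they had missed, all with limma voom (VARS 0.58 with bortezomib, QARS 0.38 and PARS2 0.76 in the combination). The members are a small set, so their counts cannot be set against counts over all genes. Counts of all genes called depended on the setting, and the cause was not tested. They are given in the order bortezomib, elesclomol, combination and delayed combination against PBS, combination against bortezomib, combination against elesclomol, delayed combination against bortezomib, delayed combination against combination, and interaction, where edgeR called 0, 9, 0, 0, 0, 0, 0, 0 and 1. With no filter on low counts they were 76, 129, 211, 193, 14, 291, 25, 1 and 127. With limma voom they were 717, 51, 1407, 157, 39, 179, 4, 0 and 286, and with DESeq2 9, 49, 51, 46, 1, 53, 8, 0 and 32. Without the 3 GC-rich libraries they were 9, 47, 9, 3, 4, 12 and 2 in the first 7 and 46 in the interaction. Fits of only the groups compared called 142 genes for elesclomol, 6 for the combination and 19 for the delayed combination against PBS, 2 for the delayed combination against bortezomib and 5 for the interaction. GC and length offsets gave 2 for the delayed combination against PBS, 16 for the combination against elesclomol and 5 for the interaction. With the replicate block the counts were 2 for the combination and 3 for the delayed combination against PBS, 1 for the combination against elesclomol and 2 for the interaction. A fit of combination and bortezomib alone with the replicate block, added after seeing the data, called 5 genes, and 14 with GC and length offsets as well; the block changed no call of a member. RLE scaling and the filter at a mean of 3 log2 CPM kept every count within 1.5 times.

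Leaving out 1 library at a time gave 0 to 3, 1 to 6, 0 to 6, 0 to 46, 0 to 0, 0 to 1, 0 to 5, 0 to 0 and 0 to 27 genes in the same order, and 0 members each time. The median change of the 39 against PBS then lay between 0.051 and 0.091 with bortezomib, -0.036 and 0.048 with elesclomol, 0.025 and 0.070 in the combination, and 0.032 and 0.095 in the delayed combination. Of 143 medians 139 stayed within 1 SD of the reported value; the other 4 were 0.048 without elesclomol 1, 0.032 without delayed combination 2, 0.042 in the delayed combination without the GC-rich libraries and 0.066 in the interaction with limma voom. With 3 libraries a group the intervals of SARS2 and PARS2, the members with low counts, were the widest among the members whose libraries are given.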
